A study of Mus musculus with 22 samples.

Results

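Solute carriers (SLC) are membrane proteins that move ions, neurotransmitters, nutrients, metals and metabolites across the plasma membrane, vesicle membranes and the inner membrane of mitochondria. The mouse genes described here carry a symbol of the form Slc followed by a digit and reached 5 cpm (counts scaled to a common library total) in at least 2 of 22 brain libraries. Of 350 such genes in the table, 196 reached this level and 154 stayed below it. The 154 all had some counts, and the median of their mean levels was 0.276 cpm. The level of the genes chose them, so the level itself is described without a test. The last genes inside the limit were Slc7a6, Slc27a2 and Slc30a5, with a second-highest library of 5.12, 5.15 and 5.2 cpm. The first ones outside it were Slc35f5, Slc2a10 and Slc35g2, at 4.89, 4.68 and 4.68 cpm. The 196 genes belong to 46 numbered families. The symbol rule also takes in Slc4a1ap, Slc7a6os, Slc9a3r1, Slc9a3r2 and the pseudogene Slc2a4rg-ps, which are named after a carrier and are not carriers themselves.

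In the brain, SLC proteins load glutamate and GABA into synaptic vesicles and clear them from the extracellular space, the latter largely through transporters of astrocytes. Others set the chloride, calcium, bicarbonate and proton gradients on which excitation and inhibition rest. Glucose, lactate, amino acids, zinc and nucleosides also enter or leave cells through members of this superfamily, and the SLC25 family carries metabolites into mitochondria.

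The libraries were made from 3 brain regions, hippocampus, cortex and cerebellum. They came from 8 animals, of which 4 were wild-type (WT) and 4 were CD mice. CD mice are deficient in circTulp4, a circular RNA of the Tulp4 gene, because CRISPR-Cas9 changed the splice acceptor used for backsplicing from AG to TC. The sample descriptions call them KO, and the change lowers circTulp4 without removing it. The line descends from a single mosaic founder male and is kept on C57BL/6, and the sex and age of the mice profiled are not given in the sources used here. WT mice carry the unchanged allele, and no mouse received a treatment according to the labels. There were 3 WT and 4 CD hippocampi, 4 WT and 4 CD cortices, and 4 WT and 3 CD cerebella. RNA was measured with CelSeq2, a 3′ RNA-seq method that primes on the poly(A) tail and counts reads near the 3′ end of transcripts, so its counts do not grow with transcript length.

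Libraries held between 2757684 and 8847478 counts on the 1 transcript row kept for each gene, so that 5 cpm corresponded to 13.8 to 44.2 counts. SLC genes took 1.40% ± 0.05 of them (SD, n = 22). Each region carried its own markers, given here as the sum of a marker list per library. Hippocampal markers (such as Prox1) summed to 1158 to 1604 cpm in the hippocampi and 156 to 244.2 cpm in the cortices, with 423 to 539 cpm in the cerebella, cortical markers (such as Tbr1) to 691 to 870 cpm in the cortices, and cerebellar markers (such as Pcp2) to 7623 to 8279 cpm in the cerebella and at most 390.2 cpm elsewhere. A list of 8 choroid plexus markers set 3 hippocampi apart, CD mouse m138 with 1698 cpm, CD mouse m190 with 4908 cpm and WT mouse m244 with 9729 cpm, against 373 to 812 cpm in the other 4 hippocampi, 335 to 429 cpm in the cortices and 161.6 to 308 cpm in the cerebella. Circular RNA has no poly(A) tail, and counts taken at the 3′ end do not read the mutated splice site, so the labels were checked indirectly. The excess of counts on the Tulp4 transcript whose first exon lies in circTulp4, over the transcript that lacks this exon, ran from 2.71 to 3.69 cpm in WT hippocampi and from 0.424 to 0.573 cpm in 3 CD hippocampi, while the library labelled CD hippocampus of mouse m118 had 3.98 cpm, on the side of the WT libraries. In cortex and cerebellum the WT and CD libraries did not overlap in cpm, but the measure rests on few counts. The excess was 4 counts (1.45 cpm) in the cortex of WT mouse m244 and 8 (1.295 cpm) in that of CD mouse m190. It was 17 counts (3.125 cpm) in the cerebellum of WT mouse m244 and 19 (2.615 cpm) in that of CD mouse m242. In the hippocampus of mouse m118 it was 16 counts. Results on the hippocampus were therefore also computed without the library of mouse m118.

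Regions were compared over all 22 libraries with edgeR's quasi-likelihood test, and a gene was called when its FDR (the Benjamini-Hochberg adjusted p over all 11133 genes tested) was below 0.01 and its fold change above 2 or below 0.5. In this test 61 of the 196 SLC genes (31.1%) were called in at least 1 of the 3 comparisons, against 29.7% of all genes tested. Between cortex and hippocampus 17 SLC genes were called, against 8.42% of all genes, 6 of them higher in the cortex (4.38% of all genes) and 11 lower (4.03% of all genes). Between cerebellum and hippocampus 47 were called, against 22.8% of all genes, 22 of them higher in the cerebellum (9.77% of all genes) and 25 lower (13% of all genes). Between cerebellum and cortex 39 were called, against 22.6% of all genes, 23 of them higher in the cerebellum (9.7% of all genes) and 16 lower (12.9% of all genes). In percent, the called SLC genes were 8.67, 24 and 19.9 of those tested, close to these backgrounds. The median absolute log2 fold change of the SLC genes was 0.27, 0.41 and 0.41 in the 3 comparisons, and that of all genes was 0.23, 0.43 and 0.43.

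The split between higher and lower depended on scaling. With library totals in place of the trimmed mean of M values (TMM), 30 of 43 SLC genes called between cerebellum and cortex were higher in the cerebellum (69.8%, against 59% with TMM), and 29 of 52 between cerebellum and hippocampus (55.8%, against 46.8%). Among all called genes the share higher in the cerebellum went from 42.9% to 57.3% against the cortex and from 42.8% to 52.7% against the hippocampus. That scaling moved the median log2 fold change of all genes from 0.02 to 0.25 between cerebellum and cortex and from 0.02 to 0.20 between cerebellum and hippocampus. No called SLC gene changed direction with it. Of the 196 genes, 20 reached 5 cpm in 2 libraries of only 1 region (hippocampus 7, cortex 2, cerebellum 11), so the rule itself favored a difference in those. Among genes called against both other regions, these were Slc9a2, Slc9a4, Slc26a4, Slc26a10, Slc39a4 and Slc44a5 for the hippocampus. For the cerebellum they were Slc8a3 and Slc22a4. The RNA is that of whole tissue, and fewer cells of a type and less RNA per cell cannot be told apart in any of these comparisons.

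Differences between regions were spread unevenly over the functional lists into which the genes were sorted. Of 6 sodium-calcium exchangers 5 were called in at least 1 comparison, as were 3 of 4 vesicular neurotransmitter transporters, 3 of 4 glutamate transporters of the plasma membrane and 11 of 22 bicarbonate and proton exchangers. In contrast, 2 of 32 mitochondrial carriers and 2 of 20 transporters of nucleosides and nucleotide sugars were called. The remaining lists lay between these, with 1 of 5 cation-chloride cotransporters, 4 of 9 SLC6 transporters, 6 of 18 carriers of glucose and monocarboxylates, 6 of 24 of amino acids and peptides, 7 of 23 of metals, 10 of 27 of organic ions, choline, fatty acids and vitamins, and 1 of 2 genes of other families. These counts are read against the 29.7% of all genes called in at least 1 comparison. They depend on scaling. With library totals in place of TMM, Slc24a2 lost its only call. Slc24a3 lost that between cerebellum and hippocampus and gained one between cortex and hippocampus. Genes of the nucleoside and nucleotide sugar list gained calls, among them Slc35c1. Slc8a3 passed the filter through the cerebellum only, so the rule favored its calls.

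**Figure D1:**
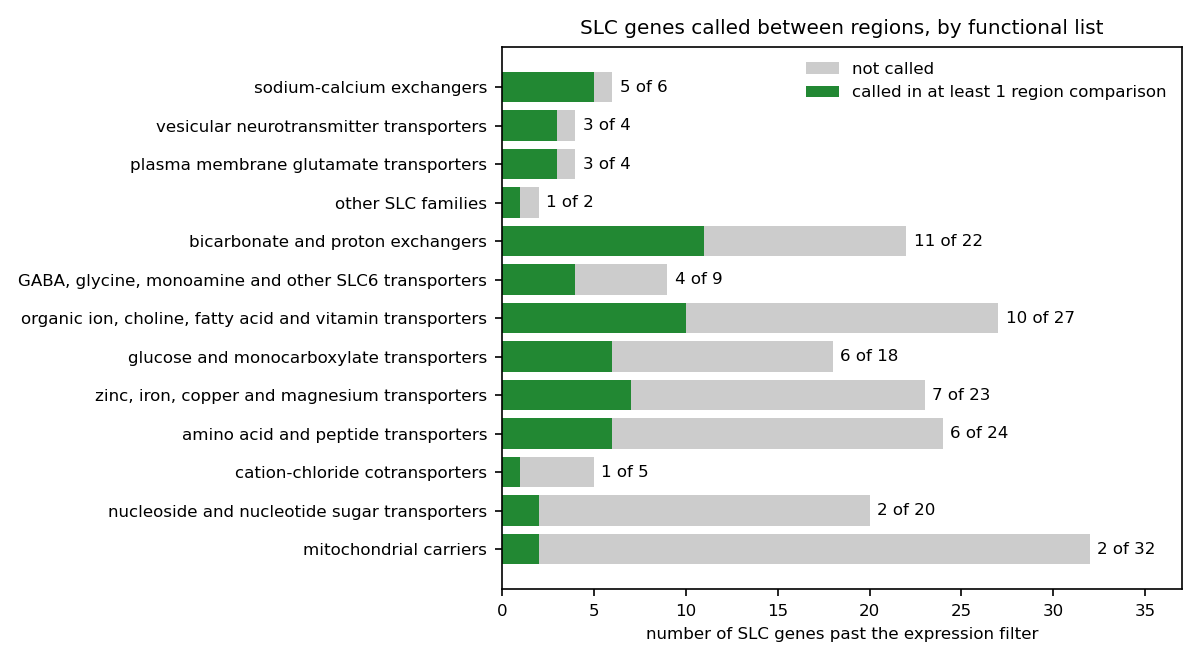
SLC genes past the expression filter by functional list, with the number of genes on the x axis; gray bars give all genes of a list and green bars those called in at least 1 of the 3 region comparisons. With TMM scaling, sodium-calcium exchangers have 5 of 6 genes called and mitochondrial carriers 2 of 32.

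The vesicular transporters showed opposite patterns for glutamate and GABA. Slc17a7 (VGLUT1), which loads glutamate into vesicles of most cortical and hippocampal excitatory neurons, had 418 to 718 cpm with a median of 490.0 in the hippocampi, 432 to 674 cpm with a median of 528 in the cortices and 153 to 259 cpm with a median of 225 in the cerebella. The cerebellar range lay wholly below those of both other regions, 2.44-fold lower than the hippocampus (log2 fold change -1.29 ± 0.12 (SE), FDR = 1.40e-09) and 2.45-fold lower than the cortex (FDR = 7.92e-10), whereas cortex and hippocampus did not differ beyond their spread (log2 fold change 0.00, FDR = 0.982). Slc17a6 (VGLUT2), the vesicular glutamate transporter typical of thalamic and brainstem neurons, had 8.55 to 20.2 cpm with a median of 15.1 in the hippocampi, 14.9 to 51.4 cpm with a median of 39 in the cortices and 0.37 to 3.97 cpm with a median of 1.21 in the cerebella. It was called in all 3 comparisons, highest in the cortex, with a log2 fold change of 1.15 against the hippocampus (FDR = 0.00109) and -4.29 for the cerebellum against the cortex (FDR = 8.98e-11). Cortices themselves fell apart for this gene, with 14.9 cpm in WT mouse m164 and 15.4 cpm in CD mouse m138, inside the hippocampal range, and 27.1 to 51.4 cpm in the other 6. The call between cortex and hippocampus was lost with WT libraries alone (log2 fold change 1.17, FDR = 0.0347) and without the 3 hippocampi rich in choroid plexus markers (1.03, FDR = 0.0178).

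Slc32a1 (VGAT), which fills vesicles of inhibitory neurons with GABA and glycine, ran the other way, with 61.8 to 104 cpm with a median of 89.5 in the hippocampi, 86.4 to 128 cpm with a median of 104 in the cortices and 203 to 256 cpm with a median of 227 in the cerebella. All cerebella lay above every other library, 2.69-fold above the hippocampus (log2 fold change 1.43 ± 0.09 (SE), FDR = 1.02e-12) and 2.14-fold above the cortex (FDR = 6.11e-11). Slc18b1, a vesicular transporter of polyamines, showed similar means in the 3 regions, 19.6 ± 2.03 cpm (SD, n = 7), 20 ± 5.4 cpm (n = 8) and 19.6 ± 2.73 cpm (n = 7). The vesicular transporters of monoamines (Slc18a1, Slc18a2), acetylcholine (Slc18a3) and nucleotides (Slc17a9), and VGLUT3 (Slc17a8), stayed below the filter, with 5 to 206 counts over all 22 libraries.

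Among the plasma membrane transporters that clear glutamate, Slc1a2 and Slc1a1 were lower in the cerebellum and Slc1a6 was higher. Slc1a2 (GLT-1), the main astrocytic transporter of the forebrain, had 1043 to 1581 cpm with a median of 1205 in the hippocampi, 1158 to 1484 cpm with a median of 1404 in the cortices and 346 to 417 cpm with a median of 357 in the cerebella. Levels in the cerebellum were 3.39-fold lower than in the hippocampus (log2 fold change -1.76 ± 0.08 (SE), FDR = 1.71e-15) and 3.76-fold lower than in the cortex (FDR = 2.32e-16), with no overlap between libraries. Slc1a1 (EAAC1), a neuronal transporter, was also lowest in the cerebellum, with 67.7 ± 3.69 cpm (SD, n = 7) in the hippocampus, 49.6 ± 3.68 cpm (n = 8) in the cortex and 15.6 ± 2.45 cpm (n = 7) in the cerebellum (FDR = 2.77e-16 for cerebellum against hippocampus). A gene of the opposite strand, 4430402I18Rik, overlaps its last 1 kb, and the sources used here do not state whether strand was used in counting. Slc1a3 (GLAST), the astrocytic transporter that Bergmann glia carry, had 355 to 566 cpm with a median of 420.1 in the hippocampi, 250.04 to 464 cpm with a median of 331 in the cortices and 416 to 829.6 cpm with a median of 693 in the cerebella. It was 1.98-fold higher in the cerebellum than in the cortex (log2 fold change 0.99 ± 0.15 (SE), FDR = 2.53e-06), just short of the 2-fold limit, and the cerebella themselves spread from 416 to 829.6 cpm. With library totals in place of TMM, Slc1a3 was called in this comparison.

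Slc1a6 (EAAT4), the glutamate transporter of Purkinje cells, separated the regions most clearly of this group, with 8.72 to 13.3 cpm with a median of 11 in the hippocampi, 8.47 to 18.2 cpm with a median of 13.2 in the cortices and 225 to 295 cpm with a median of 283 in the cerebella. The cerebellar level was 24-fold that of the hippocampus (log2 fold change 4.58 ± 0.13 (SE), FDR = 3.84e-20) and 20.8-fold that of the cortex (FDR = 2.22e-20). Slc1a7, of the retina, had 2 counts in all libraries together. A list of 8 astrocyte markers summed to 6168 to 8060 cpm in the cerebella and 2448 to 2904 cpm elsewhere. Most of that sum was Aldoc, with a median of 6044 cpm in the cerebella, 1898 cpm in the hippocampi and 2281 cpm in the cortices. Gfap was highest in the hippocampus instead, with medians of 578 cpm there, 159.0 cpm in the cortex and 169.6 cpm in the cerebellum, and Aqp4 had 80.3, 47.9 and 194 cpm in the same order. The part of astrocytes in the level of either astrocytic transporter was not tested.

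**Figure D2:**
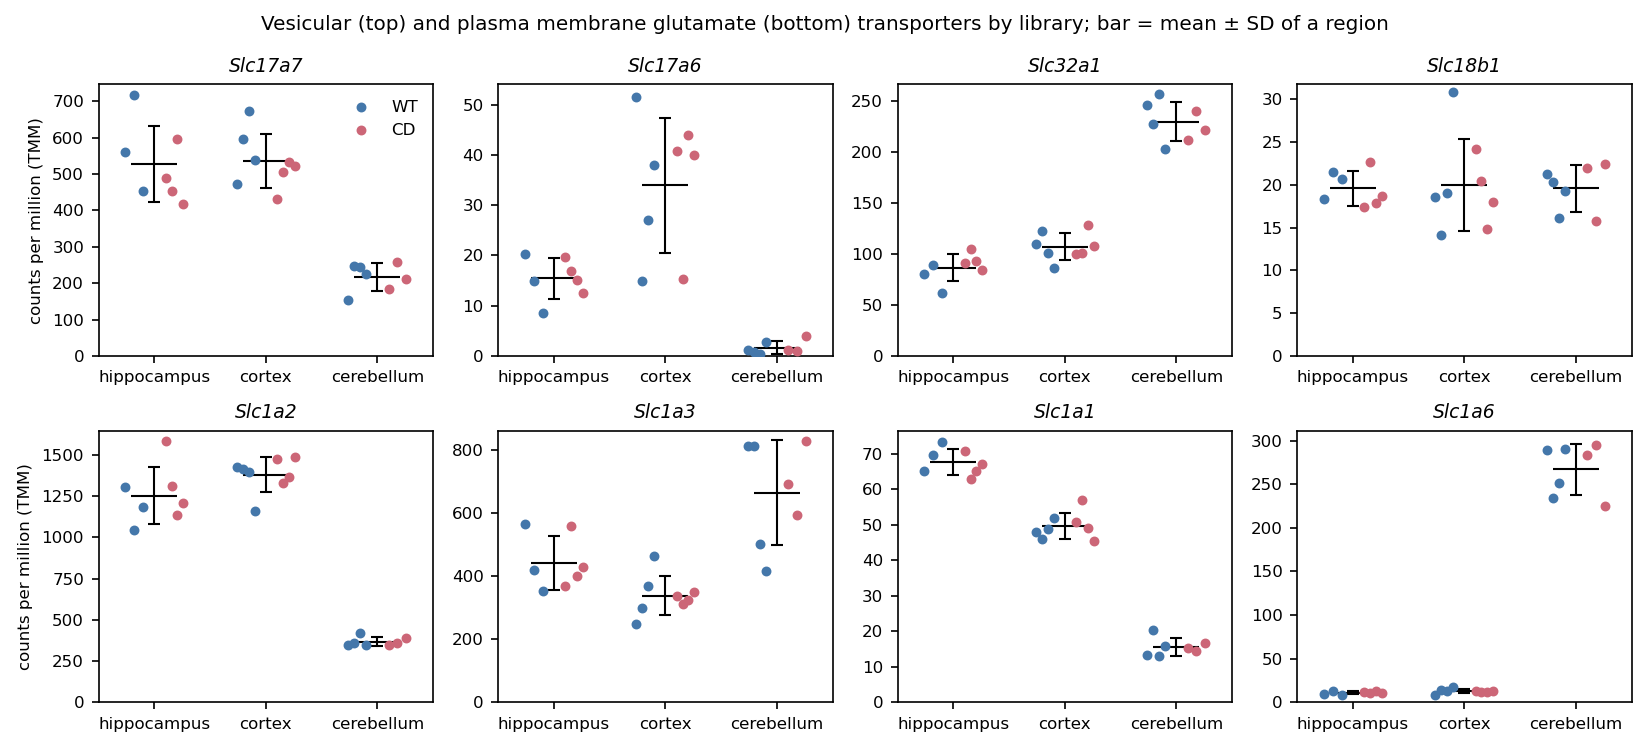
Levels of 4 vesicular transporters (top) and 4 glutamate transporters of the plasma membrane (bottom) in each library, in TMM-scaled cpm (y axis, from 0) by region (x axis); blue points are WT, red points are CD, and the black bar is the mean ± SD of a region. Cerebella sit apart from the other regions for Slc17a7, Slc17a6, Slc32a1, Slc1a2, Slc1a1 and Slc1a6, and WT and CD points are mixed.

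Promoters of genes that moved together between regions were read to show what lies before their starts. RefSeq promoters (assembly GRCm38.p6, the build of the files, mm10) were matched by symbol for 151 of the 196 genes, with 201 starts in all. For 3 genes whose shown start is the outermost one of the gene, the 250 bases before the start are printed 5′ to 3′ on the strand of the gene, Slc6a9 as a gene highest in the cerebellum (chr4:117835008-117835257, plus strand) and Slc30a3 (chr5:31108245-31108494, minus strand) and Slc17a7 (chr7:45163671-45163920, plus strand) as genes lowest there. Capitals mark matches on either strand to 3 motifs, the GC box GGGCGG, the TATA box TATAAA and the E-box CACGTG, and matches may overlap.
Slc6a9: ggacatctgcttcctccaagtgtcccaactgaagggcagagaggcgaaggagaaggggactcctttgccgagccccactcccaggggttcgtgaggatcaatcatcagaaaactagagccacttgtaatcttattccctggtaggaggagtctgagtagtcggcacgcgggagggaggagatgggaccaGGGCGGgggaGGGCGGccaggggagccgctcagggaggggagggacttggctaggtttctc
Slc30a3: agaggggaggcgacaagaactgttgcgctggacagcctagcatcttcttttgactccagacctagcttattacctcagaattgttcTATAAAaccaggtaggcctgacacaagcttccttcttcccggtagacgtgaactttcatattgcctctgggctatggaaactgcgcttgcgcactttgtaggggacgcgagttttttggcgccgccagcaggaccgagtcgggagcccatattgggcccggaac
Slc17a7: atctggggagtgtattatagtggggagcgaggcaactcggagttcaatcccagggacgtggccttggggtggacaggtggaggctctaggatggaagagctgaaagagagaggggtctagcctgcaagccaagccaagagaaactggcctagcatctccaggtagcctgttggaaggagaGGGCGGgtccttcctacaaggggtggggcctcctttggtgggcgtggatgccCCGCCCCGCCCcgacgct
The stretch before Slc6a9 held 2 GGGCGG matches, that before Slc17a7 held 3 and that before Slc30a3 held none, but 1 TATAAA match. Over windows of the same length, 61.2% of the SLC starts held GGGCGG, against 32.7% of all 32851 starts in the table. TATAAA occurred in 6.97% of SLC starts and 12.4% of all, and CACGTG in 11.4% and 6.02%. The SLC starts were also richer in G and C, with a median GC content of 60.8% and 13 CG dinucleotides against 52.4% and 6 for all starts, and they belong to genes chosen for their expression, which the starts at large were not. Within the group highest in the cerebellum 8 of 15 starts held GGGCGG and 3 held CACGTG, and within the group lowest there 8 of 13 and 0. These matches describe letters in a window and say nothing of binding.

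The SLC6 family of sodium-dependent transporters also held genes of both directions, with Slc6a9 higher and Slc6a11 and Slc6a7 lower in the cerebellum. Slc6a9 (GlyT1), the glial glycine transporter, had 38.2 to 55.7 cpm with a median of 44.1 in the hippocampi, 33.2 to 52.3 cpm with a median of 37.9 in the cortices and 108 to 132 cpm with a median of 120.0 in the cerebella. All cerebella lay above all other libraries (log2 fold change 1.63 ± 0.09 (SE), FDR = 5.55e-14 against the cortex), although B4galt2 overlaps its last 1 kb on the opposite strand. Slc6a11 (GAT-3), an astrocytic GABA transporter, was lower in the cerebellum, with 5.71 ± 0.699 cpm (SD, n = 7) against 23.1 ± 3.08 cpm (n = 7) in the hippocampus (FDR = 8.73e-14) and 18.5 ± 2.15 cpm (n = 8) in the cortex (FDR = 1.97e-12). Slc6a7, a proline transporter of excitatory terminals, fell from 49.4 ± 6.6 cpm in the hippocampus and 48.4 ± 11.4 cpm in the cortex to 12.7 ± 1.91 cpm in the cerebellum (FDR = 1.88e-11 and 1.51e-11). Slc6a13 (GAT-2), known from the meninges, was called higher in the cerebellum than in the hippocampus (19.2 to 29.4 against 3.02 to 13.2 cpm, FDR = 7.64e-06).

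Slc6a17, a vesicular amino acid transporter, was 1.5-fold higher in the cortex than in the hippocampus (FDR = 4.19e-07), under the fold limit. The transporters of dopamine (Slc6a3) and serotonin (Slc6a4) stayed below the filter, with 26 and 73 counts in all libraries, as did the glycine transporter Slc6a5 with 33.

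Among the cation-chloride cotransporters, Slc12a5 and Slc12a2 differed between regions beyond the replicate spread. Slc12a5 (KCC2), which extrudes chloride from mature neurons, had 257 ± 20.3 cpm (SD, n = 7) in the hippocampus, 409.6 ± 36.9 cpm (n = 8) in the cortex and 292 ± 8.61 cpm (n = 7) in the cerebellum. All cortices (359.7 to 464 cpm) exceeded all other libraries, by 1.59-fold over the hippocampus (FDR = 1.73e-08), so it was not called. Slc12a2 (NKCC1), which brings chloride in, was lowest in the cortex, with 24.8 ± 2.0 cpm in the cortex, 42.2 ± 7.58 cpm in the hippocampus and 57.2 ± 4.96 cpm in the cerebellum, and was called (log2 fold change 1.20 ± 0.09 (SE), FDR = 1.93e-11, for cerebellum against cortex). Slc12a4 (KCC1) and Slc12a9 were not called in any comparison, with absolute log2 fold changes of at most 0.88, and Slc12a1, Slc12a7 and Slc12a8 stayed below the filter. With library totals in place of TMM, Slc12a4 was called higher in the cerebellum than in the cortex. It passed the filter through the cerebellum only, so the rule favored that difference.

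Several sodium-calcium exchangers were called lower in the cerebellum. Slc8a2 (NCX2) had 473 to 632 cpm with a median of 534 in the hippocampi, 405 to 683 cpm with a median of 486 in the cortices and 198 to 257 cpm with a median of 221 in the cerebella, with no overlap, 2.44-fold lower in the cerebellum than in the hippocampus (FDR = 1.26e-11) and 2.24-fold lower than in the cortex (FDR = 4.49e-11). Slc8a1 (NCX1), Slc24a2 (NCKX2) and Slc24a3 (NCKX3) were called lower in the cerebellum than in the hippocampus, by 2.36-fold, 2.08-fold and 2.09-fold, with FDR of 2.20e-08, 1.49e-07 and 4.24e-06. With library totals in place of TMM, Slc24a2 (log2 fold change -0.88) and Slc24a3 (-0.89) fell under the fold limit, as did Slc8a2 against the cortex (-0.93). Slc8a3 (NCX3) was higher there, with 5.97 ± 0.559 cpm (SD, n = 7) in the cerebellum against 2.19 ± 0.97 cpm (n = 7) in the hippocampus (FDR = 2.84e-05). It passed the filter through the cerebellum only, so the rule favored this call. Slc24a5 (NCKX5) was called in no comparison, with 64.8 ± 7.65, 42.6 ± 8.34 and 68.2 ± 23.5 cpm in hippocampus, cortex and cerebellum (SD, n = 7, 8 and 7), and its cerebellar level was 1.63-fold that of the cortex (FDR = 3.77e-04), under the fold limit. On the opposite strand, Myef2 overlaps the last 1 kb of Slc24a5 and AC122399.1 that of Slc8a1, so their reads may not be separable. The call of Slc24a3 was lost in 2 of 22 removals of 1 library, and those of Slc24a3 and Slc8a1 with WT libraries alone. With CD libraries alone, Slc8a3 lost its call between cerebellum and cortex (log2 fold change 1.17, FDR = 0.0186). Slc24a2 was as low as 419 cpm in 1 hippocampus, of CD mouse m242, whereas the other 6 had 715 to 876 cpm.

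Several bicarbonate and proton exchangers were called higher in the hippocampus than in both other regions. Slc9a4 (NHE4), a sodium-proton exchanger, had 68.7 to 82.3 cpm with a median of 70.4 in the hippocampi, 0.396 to 3.04 cpm with a median of 1.18 in the cortices and 0.521 to 1.66 cpm with a median of 0.816 in the cerebella. It reached at most 3.04 cpm outside the hippocampus and was 55.4-fold lower in the cortex (log2 fold change -5.79 ± 0.17 (SE), FDR = 5.79e-18) and 73.2-fold lower in the cerebellum (FDR = 3.24e-19). Slc4a7 (NBCn1), which brings in sodium and bicarbonate, was 3.42-fold lower in the cortex and 2.33-fold lower in the cerebellum than in the hippocampus (FDR = 8.92e-12 and 2.43e-09), and its hippocampal range of 66.5 to 91.2 cpm lay above all other libraries. Slc9a2 (NHE2) at 4.78 to 7.84 cpm and Slc26a10 at 5.51 to 14.5 cpm in the hippocampus were likewise called above both other regions. Slc26a10 shares its last 1 kb with B4galnt1 on the opposite strand, so its reads and those of B4galnt1 may not be separable. Its highest hippocampi, reaching 14.5 cpm against at most 9.35 cpm in the other 5, were those of CD mouse m190 and WT mouse m244, which also had the most choroid plexus markers, whose part in this level was not tested.

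Slc26a4 (pendrin), an anion exchanger, fell stepwise, with 11.8 to 19.2 cpm in the hippocampi, 0.793 to 3.75 cpm in the cortices and 0 counts in 6 of 7 cerebella. All cerebella together had 2 counts against 743 in the hippocampi, a ratio of 297 with an exact 95% interval of 81.9 to 2456, which covers counting error only. Slc9a5 (NHE5), a neuronal exchanger, ran the other way, with 3.99 ± 1.16 cpm in the hippocampus (SD, n = 7), 12 ± 2.37 cpm in the cortex (n = 8) and 16.9 ± 4.21 cpm in the cerebellum (n = 7), called against both (FDR = 6.20e-07 and 2.11e-09). Slc4a4 (NBCe1), an astrocytic bicarbonate transporter, was 2.83-fold higher in the cerebellum than in the cortex (FDR = 5.84e-09). Slc4a3 was 1.66-fold higher in the cortex than in the hippocampus, short of the fold limit (FDR = 1.98e-07), and the exchangers Slc9a7, Slc9a8, Slc9a9, Slc4a2, Slc4a8 and Slc4a10 were not called in any comparison. Of the adaptor genes named after SLC9A3, Slc9a3r2 was called higher in the cerebellum (219 to 633 cpm) than in the hippocampus (128 to 236 cpm, FDR = 5.62e-08), with WT mouse m240 at 219 cpm and the other 6 cerebella at 504 to 633 cpm. Its call against the cortex (FDR = 2.75e-06) was lost with the mouse block and with WT libraries alone.

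Slc4a5 (NBCe2), a bicarbonate transporter of the choroid plexus, rested on a few hippocampi. In order of rising choroid plexus markers, the hippocampi had 1.56 (WT mouse m162), 1.01 (CD m118), 3.68 (WT m240), 5.79 (CD m242), 13.3 (CD m138), 36.3 (CD m190) and 78.2 cpm (WT m244), against 0 to 2.27 cpm in the cortices and 3.33 to 5.87 cpm in the cerebella. The 4 hippocampi with the lowest marker sums did not exceed the range of the cerebella, and the other 3 did. It was called higher in the hippocampus than in both other regions (FDR = 1.62e-05 against the cortex and 0.00458 against the cerebellum). Without WT mouse m244 alone, the difference between cerebellum and hippocampus lost its call (log2 fold change -0.43, FDR = 0.459), and without the 3 hippocampi above 1000 cpm of markers it turned to 0.55 (FDR = 0.205). The cortex remained lower without them (log2 fold change -2.98, FDR = 0.000123). The call between cerebellum and cortex (FDR = 0.0066) was lost in 11 of 22 removals of 1 library and within WT or CD libraries alone. Slc39a4, a zinc importer, moved with the same markers, from 3.98 cpm in the hippocampus with the lowest marker sum to 17.6 cpm in the one with the highest, but even its lowest hippocampus exceeded every cortex and cerebellum (at most 1.05 cpm). Slc13a4 and Slc4a2 were also highest in CD mouse m190 and WT mouse m244, at 39.2 and 58.8 cpm and at 34.8 and 41.4 cpm, against at most 16.2 and 18.3 cpm in the other 5 hippocampi. The part of choroid plexus tissue in the levels of these genes was not tested further. Slc9a4 ranged from 68.7 to 82.3 cpm over the same libraries. Leaving out these 3 hippocampi gave 21 SLC genes between cortex and hippocampus in place of 17, 16 of them shared, and left the other 2 counts at 47 and 39.

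**Figure D3:**
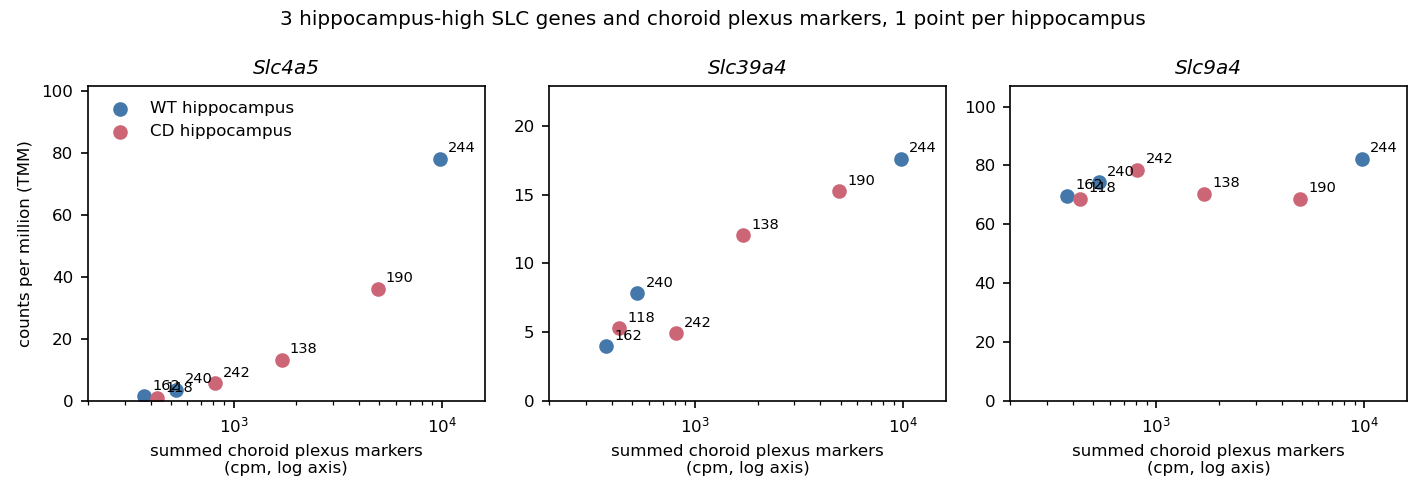
Slc4a5, Slc39a4 and Slc9a4 in TMM-scaled cpm (y axes, from 0) against the summed choroid plexus markers (x axis, cpm on a log scale), with 1 point for each hippocampus, blue for WT and red for CD, and the mouse number beside it. Slc4a5 and Slc39a4 are highest in mice m138, m190 and m244, whose marker sums are 1698, 4908 and 9729 cpm, and Slc9a4 stays between 68.7 and 82.3 cpm.

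Among transporters of zinc, copper, iron and magnesium, the synaptic vesicle zinc transporter Slc30a3 (ZnT3), whose promoter is printed above, separated cerebellum from forebrain. It had 521 to 697 cpm with a median of 649.9 in the hippocampi, 916 to 1238 cpm with a median of 1100.5 in the cortices and 16.2 to 23.3 cpm with a median of 20 in the cerebella. No libraries overlapped between any 2 regions, and the cerebellum was 53.9-fold lower than the cortex (log2 fold change -5.75 ± 0.11 (SE), FDR = 7.36e-23) and 31.1-fold lower than the hippocampus (FDR = 4.24e-22). The cortex exceeded the hippocampus by 1.73-fold (FDR = 1.64e-08), below the fold limit. Slc41a3, of a family of magnesium transporters, was the counterpart of the cerebellum, with 137 to 195 cpm there against 12 to 16.1 cpm in the hippocampus and 14.5 to 23 cpm in the cortex (10.9-fold and 8.95-fold, FDR = 2.09e-19 and 2.45e-19). The zinc importer Slc39a10 was called higher in the cortex than in both other regions, with 23.2 ± 6.89 cpm (SD, n = 8) against 8.0 ± 3.11 cpm (n = 7) in the hippocampus and 5.8 ± 1.71 cpm (n = 7) in the cerebellum (FDR = 1.15e-06 and 1.35e-08). Slc30a10, a manganese exporter, was lower in the cerebellum than in the hippocampus (FDR = 2.21e-06). Slc31a2 and Slc39a13 were each called higher in the cerebellum in 1 comparison. Slc31a2 passed the expression filter through the cerebellum only, so the rule favored its call.

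Among carriers of glucose and monocarboxylates, Slc2a1 (GLUT1), of the blood-brain barrier and astrocytes, and Slc2a3 (GLUT3), of neurons, were not called between any regions. Slc2a1 had 42.2 ± 5.71, 54 ± 6.54 and 48.5 ± 9.1 cpm and Slc2a3 64.1 ± 7.72, 76.8 ± 13 and 67.1 ± 5.85 cpm in hippocampus, cortex and cerebellum (SD, n = 7, 8 and 7). Slc16a7 (MCT2), which takes up lactate in neurons, was lower in the cerebellum (28.7 to 36.6 cpm) than in the cortex (47.8 to 73.3 cpm, FDR = 3.70e-09), at a change of 2.02-fold that was lost with library totals. Slc5a5, the sodium-iodide symporter, was 4.35-fold lower in the cerebellum than in the cortex (FDR = 1.54e-10). Slc16a11, a monocarboxylate carrier, showed the reverse, with 41.1 to 64.3 cpm in the cerebella and at most 13.7 cpm in any other library (6.23-fold over the hippocampus, FDR = 2.33e-13).

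Of 24 amino acid and peptide transporters 6 were called. The system A and system L members Slc38a1, Slc38a2 and Slc43a2 were higher in the cerebellum. Slc43a2 had 272 to 366 cpm with a median of 318 in the hippocampi, 289 to 385 cpm with a median of 342 in the cortices and 692 to 958 cpm with a median of 792 in the cerebella, without overlap (2.58-fold over the hippocampus, FDR = 1.50e-13). Slc38a1 (SNAT1) rose 2.42-fold over the hippocampus (FDR = 1.13e-08), and Slc38a2 (SNAT2) stood at the limit with 2.0-fold (FDR = 3.16e-09), a call lost under DESeq2, the mouse block, WT libraries alone and 7 of 22 removals of 1 library. Slc1a4 (ASCT1), a carrier of serine and alanine, Slc7a4, and Slc7a11 (xCT), the cystine-glutamate exchanger, were lower in the cerebellum than in both other regions. They had 15.9 ± 2.2, 18.9 ± 2.07 and 5.1 ± 1.32 cpm there against 38 ± 6.56, 53.8 ± 5.27 and 11.5 ± 2.16 cpm in the hippocampus (FDR = 1.54e-08, 3.13e-12 and 9.14e-06). P2rx6 overlaps the end of Slc7a4 on the opposite strand, and the call of Slc7a4 against the cortex was lost with library totals. Slc3a2, the heavy chain shared by many amino acid transporters, showed no difference past the test, with 263 ± 24.1, 292 ± 37.4 and 279 ± 22.5 cpm in the 3 regions (FDR = 0.132, 0.358 and 0.475).

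Carriers of organic ions, choline and vitamins held a group that was low in the hippocampus. Slc22a6 (OAT1) had 1.51 to 5.14 cpm in the hippocampi, 9.39 to 27.7 cpm in the cortices and 9.18 to 14.1 cpm in the cerebella (FDR = 2.38e-08 and 3.66e-07 against the hippocampus). Slc47a1 (MATE1) was called against both regions as well, with overlapping libraries (1.26 to 5.82, 3.69 to 12.2 and 3.6 to 11.4 cpm), and Slc13a3, Slc13a5 and Slc20a1, carriers of dicarboxylates, citrate and phosphate, were each lower in the hippocampus in 1 comparison. A list of 8 markers of meningeal fibroblasts (such as Dcn and Col1a1) was detected in full in every group. The sum was 84.2 to 234 cpm in the hippocampi, 87.0 to 220 cpm in the cortices and 154 to 273 cpm in the cerebella. Igf2 had the highest median of the list in each region, at 43.63, 64.74 and 95.05 cpm in the same order. Dcn went the other way, with medians of 18.51, 9.13 and 10.76 cpm, and Lum was also highest in the hippocampus. The remaining markers had their lowest median there, as did Igf2. The part of meningeal tissue in these differences was not tested. Slc29a4 (PMAT), a transporter of monoamines and nucleosides, was 7.13-fold lower in the cortex than in the hippocampus and 7.64-fold lower than in the cerebellum (FDR = 8.77e-14 and 5.15e-15), with cortices at 7.54 to 10.7 cpm and all other libraries at 44.3 cpm or more. The same 2 hippocampi rich in choroid plexus markers, of CD mouse m190 and WT mouse m244, were its highest at 70.5 and 101 cpm, and the other 5 had 44.3 to 57.8 cpm. Slc44a1, a choline transporter, was 2.16-fold lower in the cortex than in the hippocampus (FDR = 5.64e-07), and Slc44a5 was called above both regions in the hippocampus at 3.92 to 6.83 cpm. Oligodendrocyte markers (such as Mbp) summed to 3406 to 5445 cpm in the hippocampi against 1165 to 2539 cpm in the cortices, and their part in the level of Slc44a1 was not tested. Slc22a4 (OCTN1), Slc22a15 and Slc46a3 were called higher in the cerebellum than in both other regions, at 4.04 to 6.12, 16.1 to 24.5 and 8.69 to 12.8 cpm.

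Mitochondrial carriers differed least between regions in the share of genes called. Slc25a4 (ANT1), which exchanges ADP for ATP, had 200.4 ± 22.7 cpm (SD, n = 7) in the hippocampus, 209 ± 27 cpm (n = 8) in the cortex and 196 ± 22.4 cpm (n = 7) in the cerebellum (FDR of 0.577, 0.783 and 0.326 in the 3 comparisons). Slc25a39, the glutathione carrier, and Slc25a23, an ATP-Mg/phosphate carrier, differed beyond replicate spread by 1.24-fold and 1.52-fold between cerebellum and hippocampus (FDR = 0.00173 and 5.61e-08), up and down respectively, under the fold limit. The called ones were Slc25a29, a carrier of basic amino acids, at 4.19 ± 1.5 cpm in the cortex against 8.27 ± 0.831 cpm in the hippocampus (FDR = 4.01e-06) and 11.3 ± 1.44 cpm in the cerebellum (FDR = 2.68e-09), and Slc25a34, 2.02-fold higher in the cerebellum than in the hippocampus (FDR = 1.09e-04). Both lay near the limit. The first lost its call against the hippocampus in 6 removals of 1 library and with the mouse block, and against both regions with CD libraries alone (log2 fold change -0.64, FDR = 0.0205 for cortex against hippocampus, and 0.97, FDR = 0.00067 for cerebellum against cortex). The second lost its only call in 7 removals, with CD libraries alone (0.94, FDR = 0.0111) and without the 3 hippocampi rich in choroid plexus markers (0.95, FDR = 0.000916). Of the nucleoside and nucleotide sugar transporters, Slc29a1 (ENT1), which carries adenosine, was called beside Slc29a4, 2.37-fold higher in the cerebellum than in the cortex (FDR = 5.42e-10).

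The further genes of these last lists named here changed by less than the fold limit or not past the test, except Slc66a2. Slc22a17, a lipocalin receptor, had 609 ± 56.6 cpm (SD, n = 7) in the hippocampus, 604 ± 55.1 cpm (n = 8) in the cortex and 353 ± 37.4 cpm (n = 7) in the cerebellum (FDR = 2.04e-09 for cerebellum against hippocampus). The fatty acid carrier Slc27a4 (FDR = 0.192, 0.955 and 0.158), the zinc transporter Slc39a9 (0.442, 0.879 and 0.466) and Slc35c2 (0.312, 0.704 and 0.11) passed in no comparison. Slc48a1, a heme transporter, Slc35e2 and the GDP-fucose carrier Slc35c1 differed between cerebellum and hippocampus by 1.27-fold, 1.37-fold and 1.93-fold (FDR = 7.58e-04, 4.09e-06 and 4.75e-06), the first lower and the other two higher in the cerebellum. Slc66a2 was called higher in the cerebellum than in the cortex (23.3 to 32.7 against 9.51 to 16 cpm, FDR = 3.21e-08), a call lost in 3 removals of 1 library, and Slc66a1 was not called (0.0177). With library totals in place of TMM, Slc35c1 was called between cerebellum and hippocampus and Slc66a1 between cerebellum and cortex.

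Grouped by pattern, 39 SLC genes were called in both comparisons of 1 region. In 12 the cerebellum was higher than both other regions and in 14 it was lower. The hippocampus was higher in 7 and lower in 3, and the cortex was higher in 1 and lower in 2. Slc4a5, Slc17a6 and Slc26a4 were called in all 3 comparisons and so fit 2 patterns each, of which 1 was counted. Slc17a6, also highest in the cortex, and Slc26a4, also highest in the hippocampus, stand among the genes lower in the cerebellum, and Slc4a5, also lowest in the cortex, among those higher in the hippocampus. Another 22 were called between a single pair of regions and 135 in none. Of the 7 higher in the hippocampus, Slc4a5 and Slc4a7 alone passed the expression filter through more than 1 region. The rest of the 7 and, among the cerebellar patterns, Slc8a3, Slc22a4 and Slc26a4 passed it through 1 region, so the rule favored their calls.

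**Figure D4:**
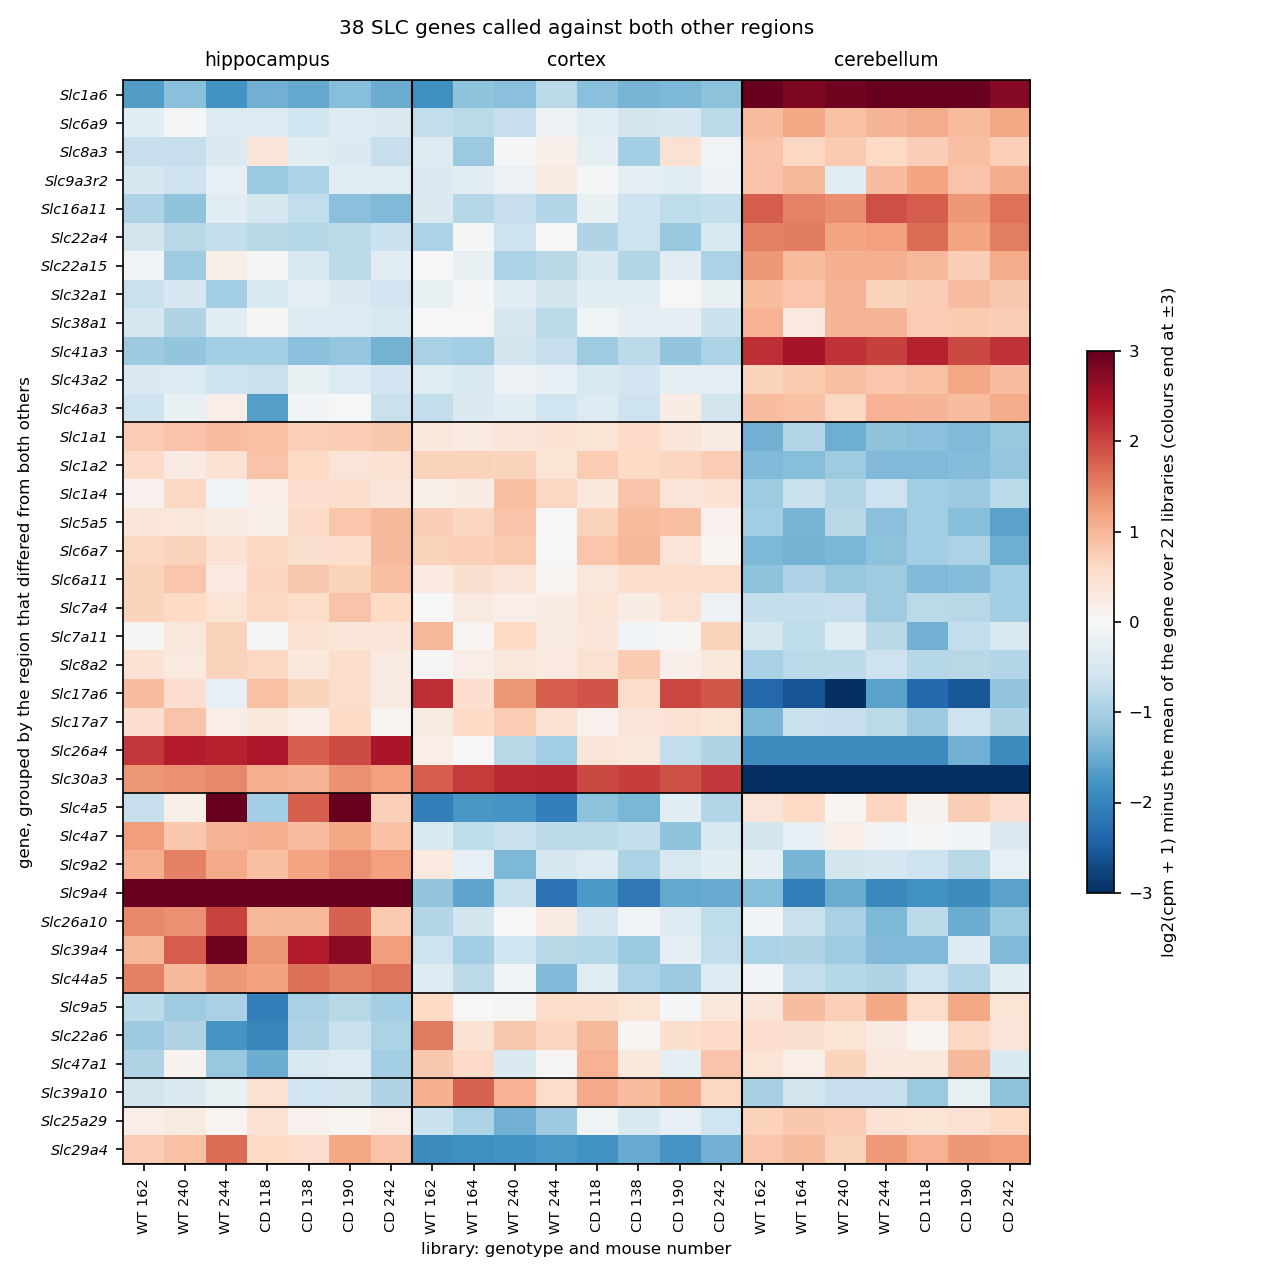
Levels of 38 of these genes (rows, grouped by the region that differed from both others) in the 22 libraries (columns, by region, genotype and mouse), as log2(cpm + 1) minus the mean of the gene, from blue (lower) to red (higher) with colors ending at 3 units. The 12 genes at the top are red in the cerebella, except Slc9a3r2 in WT mouse m240, and the 13 below them blue, and within a region WT and CD columns look alike apart from single libraries such as WT mouse m244 for Slc4a5.

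CD and WT mice were compared within each region, over the 3 regions together, and for a difference that varied between regions, to ask whether circTulp4 deficiency changes transporter RNA. No SLC gene was called in any of them. Tested were 177 SLC genes of the hippocampus, 174 of the cortex, 184 of the cerebellum and 196 over the regions, and the share of all genes called was 0% in each of the 5 comparisons. Levels below are scaled over the 22 libraries, whereas the fold changes come from fits scaled within a region, and p-values measure the spread between these mice. The smallest FDR of an SLC gene was 0.998 for hippocampus, 0.9997 for cortex and 0.981 for cerebellum (edgeR's quasi-likelihood test). At an unadjusted p under 0.05 there were 5, 7 and 6 SLC genes within the regions (2.82%, 4.02% and 3.26% of those tested, against 4.22%, 3.32% and 4.55% of all genes), 8 over the regions in limma-voom with the mouse as a block (4.08%, against 3.57% of all genes), and 9 for the interaction (4.59%, against 3.92%). DESeq2 called 0 as well and gave 3, 8 and 6 at an unadjusted p under 0.05 within the regions (1.69%, 4.60% and 3.26%, against 3.46%, 2.83% and 3.86% of all genes). The calls remained at 0 without the hippocampus of CD mouse m118 and in every other removal of 1 library.

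The intervals show what size of change these libraries could have held. In the hippocampus, 163 of 177 SLC genes (92.1%) had a 95% interval of the CD to WT difference within a 2-fold change in either direction, as had 163 of 174 (93.7%) in the cortex and 175 of 184 (95.1%) in the cerebellum. For Slc17a7 the log2 fold change (CD minus WT) was -0.24 (95% interval -0.60 to 0.12) for hippocampus, -0.20 (95% interval -0.47 to 0.06) for cortex and 0.01 (95% interval -0.34 to 0.36) for cerebellum. For Slc32a1 it was 0.28 (95% interval -0.02 to 0.57), 0.05 (95% interval -0.22 to 0.32) and -0.05 (95% interval -0.28 to 0.18), and for Slc1a2 it was 0.15 (95% interval -0.13 to 0.44), 0.06 (95% interval -0.16 to 0.29) and -0.01 (95% interval -0.23 to 0.21). Slc12a5 gave -0.00 (95% interval -0.24 to 0.23), 0.08 (95% interval -0.15 to 0.32) and -0.05 (95% interval -0.24 to 0.14). All these intervals include 0 and exclude a 2-fold change. The estimate farthest from 0 in the hippocampus was that of Slc4a5 at -0.90 (95% interval -3.19 to 1.38), where WT mouse m244 and CD mice m138 and m190 carried the choroid plexus markers.

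**Figure D5:**
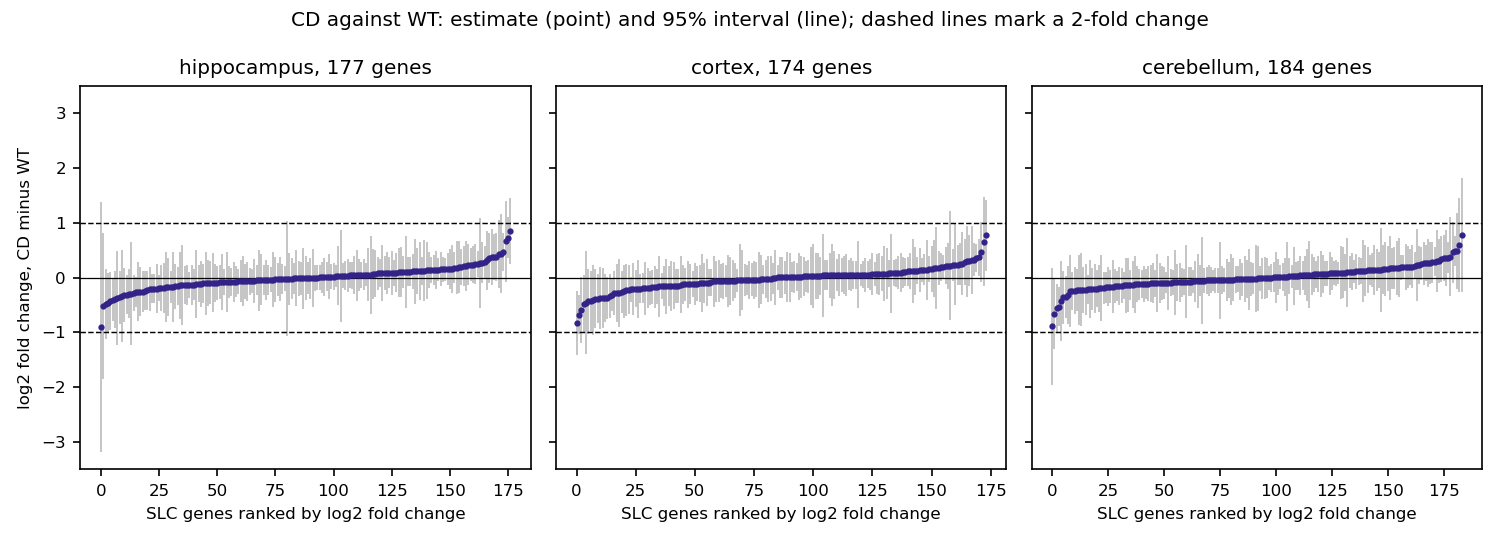
Log2 fold change between CD and WT (y axis) of each SLC gene in the hippocampus, cortex and cerebellum, ranked on the x axis; points are estimates, gray lines 95% intervals, and dashed lines mark a 2-fold change. No point passes the dashed lines, and 163 of 177, 163 of 174 and 175 of 184 intervals lie between them.

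The genes with the smallest p in each region are given as values, since none passed the correction. In the hippocampus, Slc35f1 had 26.6, 27.5, 33.7 cpm in WT and 39.5, 41.3, 51.9, 62.4 cpm in CD mice (log2 fold change 0.73 ± 0.17 (SE), unadjusted p = 0.00122, FDR = 0.998), and CD and WT libraries did not overlap. Slc15a2 (PEPT2), a peptide transporter, had 4.11, 4.87, 5.36 cpm in WT and 5.9, 7.55, 8.81, 12.3 cpm in CD mice, and Slc8a1 102, 117.9, 148 and 136, 164.3, 172, 206 cpm. These were followed by Slc15a4 and Slc25a14, with log2 fold changes of -0.42 and 0.25. In the cortex, Slc25a15, the mitochondrial ornithine carrier, had 18.2, 20.3, 25, 25.9 cpm in WT and 11.4, 13.6, 15.1, 15.5 cpm in CD mice (log2 fold change -0.68 ± 0.17 (SE), unadjusted p = 0.00111, FDR = 0.9997), without overlap. Next in the cortex stood Slc25a45, Slc2a3, Slc25a29 and Slc29a1, with log2 fold changes of -0.83, 0.36, 0.77 and -0.32. In the cerebellum, Slc39a11 had 21.6, 22.8, 24.5, 26.3 cpm in WT and 30.6, 33.4, 36 cpm in CD mice (log2 fold change 0.48 ± 0.12 (SE), unadjusted p = 0.00195, FDR = 0.981), again without overlap. Slc23a2, a vitamin C transporter, had 30.4, 30.7, 38, 39.2 and 18.2, 24.3, 28.4 cpm, and Slc9a3r1, Slc6a15 and Slc45a4 followed with log2 fold changes of 0.37, -0.56 and 0.29.

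Over the 3 regions together, the smallest p values belonged to Slc39a11, Slc35a2, Slc25a53, Slc13a3 and Slc30a5, with log2 fold changes of 0.24, 0.24, -0.43, -0.32 and 0.54 and an FDR of 0.9996 each (limma-voom). Groups that did not overlap were found for 9 of 177 SLC genes in the hippocampus (5.08%, against 5.42% of all genes), 8 of 174 in the cortex (4.60%, against 2.55%) and 8 of 184 in the cerebellum (4.35%, against 5.35%). The mitochondrial carrier Slc25a25 was lower in all CD than in all WT libraries of both hippocampus and cerebellum, whereas Slc6a15, a neutral amino acid transporter, was higher in all CD hippocampi and lower in all CD cerebella.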

How the data were processed

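RNA of 22 libraries was measured by CelSeq2 with a 6-base molecular identifier. All libraries of the deposited table were used, more per group than the study names for its own transcriptome comparison. The authors aligned reads to mm10 with STAR and deposited raw counts per RefSeq transcript, obtained with ESAT (End Sequence Analysis Toolkit). Versions, collapsing of identifiers, strand and shared reads are not given in the sources used here. Of 193 SLC genes found in the GENCODE M21 annotation, 25 had another gene on the opposite strand within their last 1 kb, and 4 on the same strand. Beside those described above with this overlap, the 25 include Slc2a1, Slc4a2, Slc12a4, Slc20a1, Slc25a23, Slc29a1, Slc35e2, Slc39a13 and Slc48a1. Transcripts were matched to RefSeq symbols (69280 of 85964), and the unmatched 16684 held 18.6% of counts. As 46.5% of rows repeat another row, 1 row per gene, that of the highest total, was kept. Genes reaching 5 cpm in 2 libraries entered edgeR 4.0.16 (TMM, quasi-likelihood test, R 4.3.3), over all libraries for regions and within a region for genotype. Genotype over regions used limma 3.58.1 (voom, mouse as a block), and the interaction used edgeR. A gene was called where the FDR was under 0.01 and the fold exceeded 2 either way (0.5 for a decrease), or, for the interaction, FDR below 0.05. Alternatives were DESeq2 1.42.0, library totals, no filter, summed distinct rows, a mouse block, 1 genotype only, each library left out and, added after seeing the data, 3 hippocampi left out.

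Mouse numbers in the titles pair regions of the same mouse. Deviations from group means correlated between regions of a mouse at -0.09 to 0.19 (median 0.05), and the block changed few calls. Named genes were all members of the vesicular, glutamate and chloride lists, the 10 called genes with the largest fold change per region comparison, the 5 with the smallest p per genotype comparison, and, per other list, 3 by level and 3 called ones by spread. Other genes were named after their values were seen. The members and lists were chosen with earlier results of these data known. No 2 libraries of a group agreed within counting noise (chi-square per degree of freedom of 6.2 or more). Scripts were tested on simulated data. Results on some genes are not reported here.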

Additional observations from a re-analysis of the deposited data

Results flagged for a closer look

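In groups of 4 libraries, the single library farthest from the other 3 was looked for in 75 named genes, over 263 groups, and 22 held a library apart from the rest by Dixon's criterion. Chance flags about 1 in 20 groups, which is 13.2 here. Several flags fell on the same library and are not separate observations. In WT cortex, those of Slc1a2, Slc6a7, Slc6a9 and Slc35a2 fell on mouse m244, the library with the fewest counts (2757684). In CD hippocampus, those of Slc26a10, Slc38a2 and Slc13a3 fell on mouse m190, rich in choroid plexus markers.

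Among the CD cortex libraries, 1 lay below the other 3, whose range is in brackets, for Slc17a6 at 15.4 cpm (40.1 to 43.9), Slc6a11 at 17.6 cpm (20.3 to 20.5) and Slc24a2 at 519.8 cpm (673 to 689.8). In CD cortex, 1 library lay above the other 3, whose range is in brackets, for Slc1a4 at 55.2 cpm (37.9 to 40.4), Slc2a1 at 66.4 cpm (50 to 50.4) and Slc48a1 at 319 cpm (247 to 253). Among the CD hippocampus libraries, 1 lay below the other 3, whose range is in brackets, for Slc2a1 at 33.2 cpm (46.1 to 48.3). In CD hippocampus, 1 library lay above the other 3, whose range is in brackets, for Slc9a4 at 78.6 cpm (68.7 to 70.4), Slc26a10 at 12 cpm (5.51 to 6.6), Slc38a2 at 407 cpm (336 to 347) and Slc13a3 at 7.2 cpm (5.29 to 5.51). Among the WT cerebellum libraries, 1 lay below the other 3, whose range is in brackets, for Slc7a4 at 16 cpm (20.6 to 20.9), Slc9a3r2 at 219 cpm (507 to 559) and Slc25a15 at 15.7 cpm (21.8 to 22.1). In WT cerebellum, 1 library lay above the other 3, whose range is in brackets, for Slc4a3 at 216 cpm (197 to 200.2) and Slc35f1 at 35.4 cpm (23.7 to 25.4). Among the WT cortex libraries, 1 lay below the other 3, whose range is in brackets, for Slc1a2 at 1158 cpm (1396 to 1424) and Slc6a7 at 31.7 cpm (52 to 54.9). In WT cortex, 1 library lay above the other 3, whose range is in brackets, for Slc6a9 at 52.3 cpm (33.2 to 35.8), Slc2a3 at 73 cpm (65 to 65.4), Slc25a34 at 7.55 cpm (3.39 to 3.96) and Slc35a2 at 13.1 cpm (9.97 to 10.3).

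Slc6a15, a neutral amino acid transporter, stood out because every CD library lay above every WT library in the hippocampus (log2 fold change CD minus WT 0.38) and below every WT library in the cerebellum (-0.56). Its levels lay near the filter, at 5.59 to 8.80 cpm in the hippocampi and 5.30 to 9.99 cpm in the cerebella. The lowest CD hippocampus was that of mouse m118, with 27 counts, whose label check lay with the WT libraries. The interaction had an unadjusted p of 0.0141 and an FDR of 0.999 in edgeR, so the difference between the regions did not pass the correction.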

How the results depend on the processing

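The number of SLC genes called stayed within 1.5 times its value under every alternative run. Leaving out 1 library at a time gave 16 to 19 between cortex and hippocampus, 45 to 48 between cerebellum and hippocampus, 37 to 41 between cerebellum and cortex, and 0 for each genotype comparison, the genotype over regions and the interaction. DESeq2 gave 18, 45 and 40 between regions, summed distinct rows 15, 43 and 39, WT libraries alone 18, 42 and 38, and CD libraries alone 16, 44 and 36. With the mouse as a replicate block the counts were 17, 45 and 38, of which 16, 45 and 38 were shared, and the calls of Slc25a29 (cortex against hippocampus), Slc4a5, Slc38a2 (both cerebellum against hippocampus) and Slc9a3r2 (cerebellum against cortex) were lost. The block changed no other call of a named gene, and the interaction with the block gave 0. Without the block, genotype over the regions gave 0 in edgeR. Of the region calls of named genes, 1608 values with 1 library left out kept their call and 42 lost it. A single result reversed. Slc4a5 between cerebellum and hippocampus came to 0.55 without the 3 hippocampi rich in choroid plexus markers, and the cause was not tested. The depth limits genes near 5 cpm most, and intervals and counts cover 8 mice of 1 line.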
